A study of Kalanchoe laxiflora with 7 samples.

Results

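The 30 gene models described here stood above wild type in every KlaxMUTE1 overexpression (OE) line of the leaf succulent Kalanchoe laxiflora, and stood higher in each line with more KlaxMUTE1 transcript. They were chosen by their measured levels, out of 27768 gene models, with a rule on CPM (raw counts scaled to the same total in each library). A member had a mean wild-type level of at least 1 CPM and a level in the line with the least KlaxMUTE1 of at least 1.5 times the highest wild-type library. Each step to the next line then had to add at least 25%. Of the 17819 gene models with that wild-type level, 0.168% met the rule. KlaxMUTE1 itself and the gene models KlGene000465 and KlGene027982 were left out, and none of the 3 met the rule on their own values. All 30 members had enough counts to be tested. Because the rule used the level of every library, the levels, steps and folds of the members are descriptions without a test.

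RNA was taken from the seventh leaf pair of 3 independent KlaxMUTE1 OE lines and 4 wild-type individuals, all of the K. laxiflora accession OBG. The lines are named OE4, OE5 and OE6 (replicates 1 to 3) and the wild-type plants WT6, WT7, WT8 and WT9 (replicates 1 to 4). Each line carries a transgene in which the constitutive 35S promoter drives the fluorescent protein mCitrine fused to KlaxMUTE1. The lines had gone through tissue culture and transformation. The wild type was not transformed, and whether it had gone through tissue culture is not stated in the sources used here. The transgene holds KlaxMUTE1 sequence, so reads of the transgene and of the endogenous gene were counted together. Each line gave 1 library. The order of KlaxMUTE1 level is therefore also an order of lines, and a step between lines has no replicate check.

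MUTE is a basic helix-loop-helix transcription factor of the stomatal lineage, the epidermal cells that divide and differentiate into the pores of the leaf. In Arabidopsis thaliana it ends the asymmetric divisions of the lineage and commits a precursor to become the guard mother cell, working with partners of the SCRM (ICE1) family. In grasses its homolog is known for the recruitment of subsidiary cells, the helper cells beside the guard cells. The 35S promoter is active in most leaf cells and not in the stomatal lineage alone. In bulk leaf RNA, more cells of a type and more RNA per cell cannot be told apart.

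KlaxMUTE1 (KlGene012921) set the order of the lines. Its level was 819.6 CPM in OE4, 1430.5 CPM in OE5 and 2402 CPM in OE6, against 0 counts in all 4 wild-type plants. The first step, OE5 over OE4, was 1.75-fold and the second step, OE6 over OE5, was 1.68-fold. The libraries held between 20679921 and 27216722 counts in the lines and between 18665659 and 24659199 in wild type, and the deepest of the lines was OE5, so depth did not follow the order of KlaxMUTE1. TMM factors, which scale a library by its composition, were 1.02 in OE4, 1.16 in OE5 and 1.06 in OE6, against 0.918 to 0.980 in wild type. On that scale every first step was multiplied by 0.884 and every second step by 1.098. All 30 members still rose in the order OE4, OE5, OE6 above every wild-type library on TMM-scaled CPM, but only 16 of them still met all limits.

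The levels of the members spanned a wide range. In CPM the median member had 18.7 in OE4, 54.2 in OE5 and 96.0 in OE6, against medians of 4.77 to 6.54 in the 4 wild-type libraries. OE6 stood between 2.73 and 177 times above the highest wild-type library, with a median of 6.31 times. Per length, in the deposited TPM values (counts divided by gene model length and scaled to 1 sum per library), the median member had 14.3 in OE4, 33.9 in OE5 and 65.8 in OE6, against 4.53 to 5.81 in wild type. In TPM the strongest member averaged 1193.6 over the 3 lines, and KlaxMUTE1 itself averaged 2361.6.

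**Figure D1:**
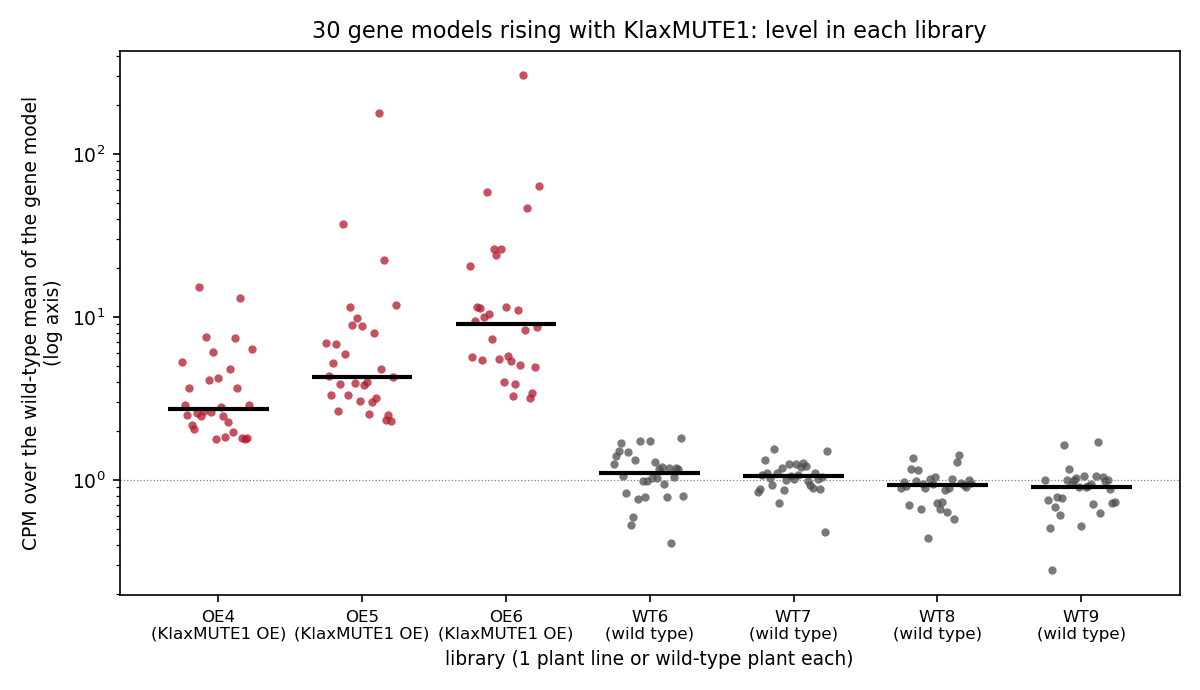
CPM of each of the 30 members divided by its own wild-type mean (log axis), in the 3 KlaxMUTE1 OE libraries (red) and the 4 wild-type libraries (grey). Points are gene models and black bars are medians. The cloud moves up from OE4 to OE6 by construction of the rule, while the 4 wild-type clouds lie around 1.

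The edges of the rule lay close to gene models on the other side. The member nearest to the first limit, KlGene025517, had an OE4 level 1.503 times its highest wild-type library, and the nearest gene model outside, with the other limits met, reached 1.42. For the first step between lines the nearest values were 1.26 inside and 1.24 outside, and for the second step 1.29 inside and 1.24 outside. The lowest mean wild-type level was 1.08 CPM inside and 0.931 CPM outside. With edgeR's quasi-likelihood test, which set the 3 lines against the 4 wild-type plants over all genes, all 30 members were called higher at an adjusted p under 0.1 and a log2 fold change over 1. That call covered 12.6% of the 21902 gene models tested, and nothing is read from the members' count, since the rule used the same contrast. The median fitted log2 fold change was 2.23 over the members and 0.07 over all gene models tested. Every line above every wild-type plant, which the rule demanded of the members, held for 26.6% of the tested gene models, and the order OE4, OE5, OE6 above wild type, at any size of step, held for 3.68%.

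The only member in the part of the gene annotation used here was KlGene000386, noted as a protein of unknown function. It had 55.6, 72.6 and 216 CPM in OE4, OE5 and OE6, against 13.2, 8.88, 9.35 and 10.5 CPM in WT6, WT7, WT8 and WT9. Its wild-type mean was 10.5 ± 1.92 CPM (SD, n = 4). OE4 and OE5 lay near each other with a step of 1.31-fold (95% counting interval 1.21 to 1.41), and OE6 stood 2.98-fold above OE5 (2.83 to 3.14). On TMM-scaled CPM this member no longer met the limit on the first step. Intervals of this kind rest on the counts of the 2 libraries, include no difference between plants, and treat reads as independent, which amplified reads with no molecular identifier are not.

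Neither gene model next in number to KlGene000386 shared its pattern. KlGene000385, noted as similar to the hypersensitive-induced response protein HIR1, had 24.2, 34.4 and 22.0 CPM in OE4, OE5 and OE6, against 24.3 to 33.6 CPM in wild type. KlGene000387, noted as similar to a RING finger protein of fission yeast, had 41.3, 32.5 and 30.7 CPM in the lines, against 7.46 to 11.9 CPM in wild type. So the next gene model was also above wild type in every line, but highest in OE4 rather than in OE6. Across the genome the members were scattered by number, since the closest pair were 8 numbers apart and no 2 were consecutive.

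Annotation was held for 1190 of the 27768 gene models, 4.29% of them, so the other 29 members, which lie outside that share, carry no name here. Every annotated gene model named here by ID was numbered KlGene001267 or lower. The annotated part is therefore not taken as a sample of the genome, and the markers and lists below come from it alone. Of the 29 members without annotation, the one with the highest wild-type level was KlGene029684. It had 429, 643 and 1292 CPM in OE4, OE5 and OE6, against 269.7, 71.7, 149.99 and 108 CPM in WT6, WT7, WT8 and WT9. WT6 was the highest of 4 widely spread wild-type plants, and their range of 3.76-fold was wider than either step between the lines, 1.498-fold and 2.01-fold. OE6 over OE4, at 3.01-fold, was also within that range. Its fitted log2 fold change was 2.20.

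KlGene020002 had the largest gap between OE6 and wild type. Its levels were 12.1, 294 and 498 CPM in OE4, OE5 and OE6, against 1.29, 1.54, 0.944 and 2.81 CPM in wild type (mean 1.64 ± 0.812, SD, n = 4). The first step was 24.2-fold (95% counting interval 21.3 to 27.5) and the second 1.69-fold (1.65 to 1.74). As a fold, the first step was thus much the larger, while OE6 still stood well above OE5. In OE4 this gene model stood only 4.33 times above the highest wild-type library, although KlaxMUTE1 was at 819.6 CPM there.

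The remaining members named here were singled out after their values were seen. KlGene007121 was the strongest in TPM. In CPM it had 812, 1968 and 3089.6 in OE4, OE5 and OE6, against 28.1, 81.3, 60.9 and 40.9 in WT6, WT7, WT8 and WT9. OE4 alone was 9.98 times above the highest wild-type plant, the largest such gap of the 30, and the steps between lines were 2.42-fold and 1.57-fold.

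KlGene029765 had the largest second step. It had 136, 251 and 1350.4 CPM in OE4, OE5 and OE6, against 17.1, 32.2, 20.3 and 15.7 CPM in wild type. OE6 stood 5.38-fold above OE5 (95% counting interval 5.24 to 5.52), against a first step of 1.84-fold. Its wild-type range was 2.05-fold, wider than the first step and narrower than the second.

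KlGene022273 stood far above wild type in every line. It had 183, 310 and 647 CPM in OE4, OE5 and OE6, against 5.73, 15.5, 19.9 and 14.6 CPM in wild type. OE4 was 9.18 times above the highest wild-type library. Both steps, 1.70-fold and 2.09-fold, were smaller than the wild-type range of 3.47-fold.

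KlGene010981 had the narrowest wild-type range of the members. The 4 wild-type plants had 51.6, 52.0, 53.2 and 52.4 CPM, a range of 1.03-fold, and the lines had 136 CPM in OE4, 207 CPM in OE5 and 291 CPM in OE6. Its steps of 1.52-fold and 1.41-fold were thus well above the spread among wild-type plants. At the other end, KlGene005711 had 4.93, 6.94 and 15.5 CPM in OE4, OE5 and OE6, against 2.25, 1.78, 0.944 and 0.374 CPM in wild type, a range of 6.02-fold among plants of 1 genotype. Neither of its steps, 1.41-fold and 2.23-fold, exceeded that range, which rests on few counts (42, 44, 22 and 8 in WT6, WT7, WT8 and WT9).

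**Figure D2:**
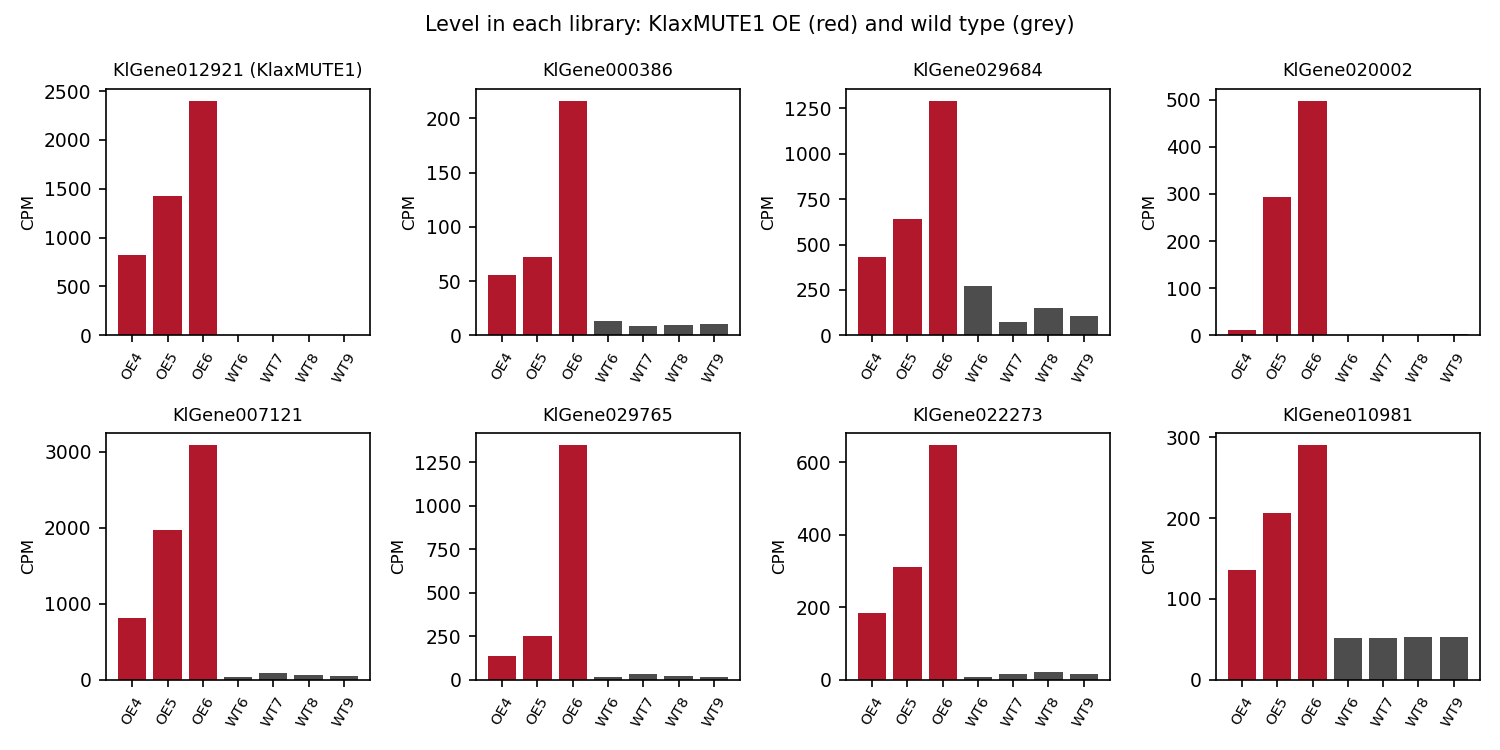
CPM in each library for KlaxMUTE1 and 7 members, with the 3 KlaxMUTE1 OE libraries in red and the 4 wild-type libraries in grey; each panel has its own axis from 0. Wild-type bars of KlaxMUTE1 are at 0 counts and those of KlGene020002 are too low to see, while those of KlGene010981 are nearly equal.

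Set against the steps of KlaxMUTE1, the members did not rise in 1 common shape. A first step of at least 2-fold with a smaller second step was seen in 5 members, and the reverse, with only the second step at least 2-fold, in 12. One member, KlGene010253, at least doubled at both steps, with 4.84, 10.5 and 28.2 CPM in OE4, OE5 and OE6, against 2.04, 1.01, 0.515 and 1.12 CPM in wild type. The other 12 doubled at neither step. Their rise over both steps together was 1.73-fold to 2.57-fold, below the 2.93-fold of KlaxMUTE1. By this measure 14 members rose more than KlaxMUTE1 between OE4 and OE6 and 16 rose less.

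The balance between both steps depended on how the libraries were scaled. On CPM the first step was the larger in 14 members and the second in 16, whereas on TMM-scaled CPM the numbers were 6 and 24. On that scale 4 members at least doubled at the first step only, 13 at the second only, 0 at both and 13 at neither. KlaxMUTE1 was rescaled by the same factors, and on that scale its second step was also the larger. How near the steps of a member came to those of KlaxMUTE1 was the same on both scales. The nearest was KlGene015757. It had 46.6, 74.9 and 119.8 CPM in OE4, OE5 and OE6, against 22.1, 23.1, 23.9 and 25.1 CPM in wild type, with steps of 1.607-fold and 1.5996-fold. The slope of the log2 level on log2 KlaxMUTE1 over the 3 lines, which is 1 where a gene model doubles as KlaxMUTE1 doubles, had a median of 0.94 over the members. It was lowest in KlGene014563 at 0.51 and highest in KlGene020002 at 3.48, with 14 members above 1 and 16 below. Since the rule demanded a rise at both steps, a positive slope was fixed for every member, and its size is a description only.

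**Figure D3:**
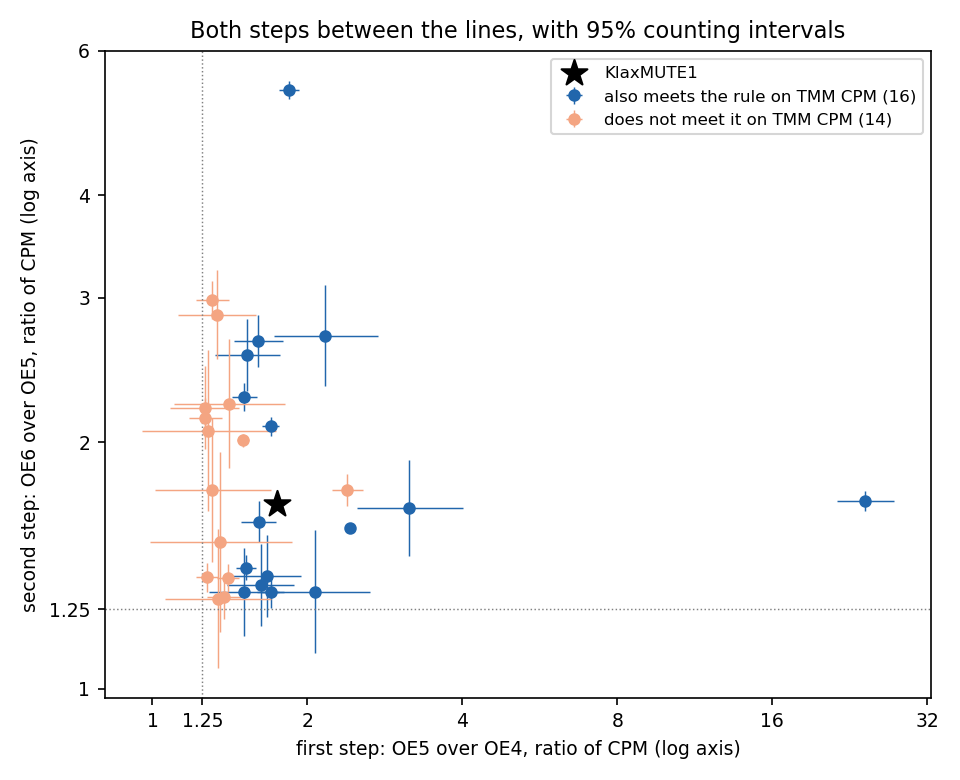
First step (OE5 over OE4) and second step (OE6 over OE5) of each member as ratios of CPM on log axes, with 95% counting intervals as bars, dotted lines at the limit of 25% and a star for KlaxMUTE1 at 1.75 and 1.68. Blue points (16) also met the rule on TMM-scaled CPM and orange points (14) did not; most orange points lie near the limit on the first step.

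Counting error was small beside most steps. In 28 members the 95% counting intervals of both steps lay above 1. In the other 2 the interval of the first step reached 1, and the shallower of them, KlGene013217, had 64, 114 and 147 counts in OE4, OE5 and OE6. In 15 members both intervals also lay above the limit of 25%.

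The range among wild-type plants was wider than 1 or both steps in most members. Wild-type plants of 1 genotype differed among themselves by 1.03-fold to 6.02-fold, with a median of 1.85-fold, in the expression of these gene models. No counting interval was made for these ranges, so they hold counting error as well as differences between plants. The widest, that of KlGene005711, rested on as few as 8 counts in a library. In 6 members both steps between lines exceeded the member's own wild-type range, in 10 members 1 step did, and in 14 neither step did. Over both steps together, OE6 over OE4 exceeded the wild-type range in 26 of the 30. The rule set a minimum for each step, and so for OE6 over OE4, which makes this count partly fixed by the rule. Over all gene models with the minimum wild-type level, the median wild-type range was 1.42-fold. A step also compares single libraries, while the range spans all wild-type plants. These counts are therefore a description only, and the same share over all gene models was not counted. The 6 members whose steps both exceeded their own wild-type range were KlGene010981, KlGene011061, KlGene011753, KlGene015757, KlGene024374 and KlGene025517. Of these, KlGene024374 and KlGene025517 did not meet the rule on TMM-scaled CPM.

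**Figure D4:**
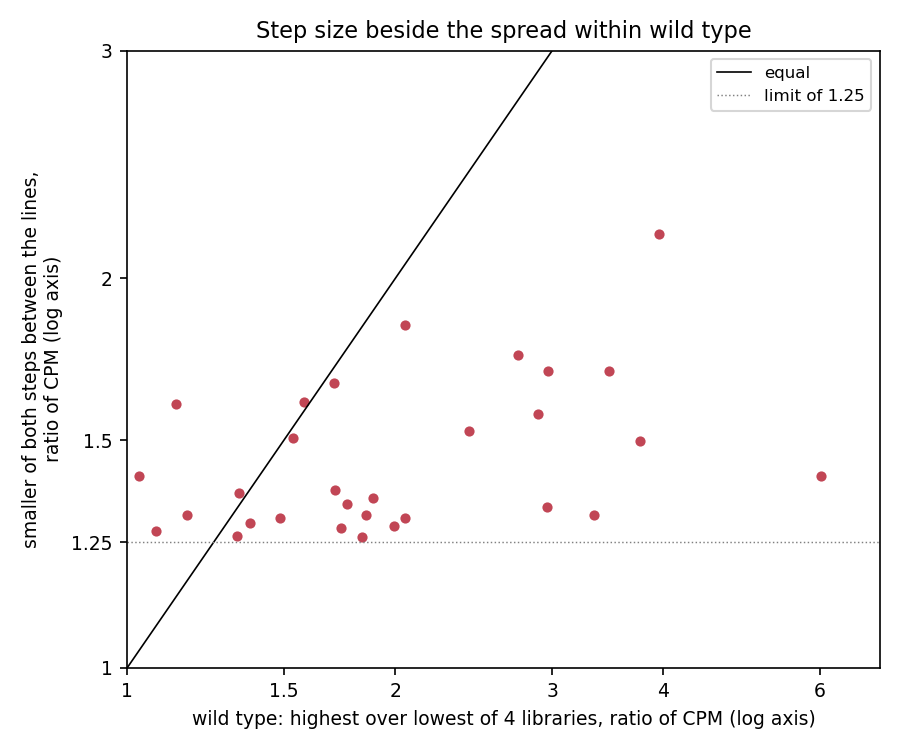
The smaller of both steps between lines, as a ratio of CPM, plotted for each member against the ratio of its highest to its lowest wild-type library (log axes). The 6 points above the solid line of equality are the members whose steps both exceeded the wild-type range; the dotted line is the limit of 25%.

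The members were set beside the 17819 gene models with the same minimum wild-type level. Gene model length was not used by the rule. The median length of the gene model was 2772 bases for the members and 3132 bases for all of those, and the quartiles were 1974 and 4131 bases for the members, against 1961 and 4642. Level and spread in wild type come from values the rule did use, and are given as a description only. The members were expressed at a lower level in wild type, with a median of 5.23 CPM against 17.6 CPM, or 5.43 TPM against 12.3 TPM. They also varied more among wild-type plants, with a median coefficient of variation of 25.6% against 15.4%. By level, 14 members had a wild-type mean under 5 CPM, 5 lay between 5 and 20 CPM, and 11 lay above 20 CPM. OE6 over OE4 had medians of 2.75-fold, 3.54-fold and 2.57-fold in these classes, and the members above 20 CPM had at least 964 counts in OE4.

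Which wild-type plant was highest or lowest also comes from values the rule used, and is given as a description only. WT6 was the highest wild-type library for 13 of the members (43.3%), against 29.0% of all gene models at that level. WT9 was the lowest for 12 members (40.0%), against 21.6%. Since the rule compared OE4 with the highest wild-type plant, without WT6 the same limits gave 38 gene models, 28 of them members, and without any other wild-type plant 30, all of them members.

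The order of KlaxMUTE1 was 1 of 6 in which the lines can be arranged, and it was not the commonest. With the same limits, the order OE4, OE5, OE6 held 30 gene models, or 9.29% of the 323 found over all orders. With OE5 lowest, OE6 next and OE4 highest there were 132, and with OE6 lowest, OE5 next and OE4 highest, the exact reverse of KlaxMUTE1, there were 76. The other 3 orders held 27, 29 and 29. With steps of any size, 147 of 1257 gene models (11.7%) followed the order of KlaxMUTE1, and OE4, the line with the least KlaxMUTE1, was the highest line for 52.7%. On TMM-scaled CPM the order of KlaxMUTE1 held 22 gene models of 298 and the reverse order 60. The 3 lines thus differed in many gene models that did not follow KlaxMUTE1, and with 1 library a line the part of KlaxMUTE1 level in the members' order cannot be told apart from other differences between the lines.

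**Figure D5:**
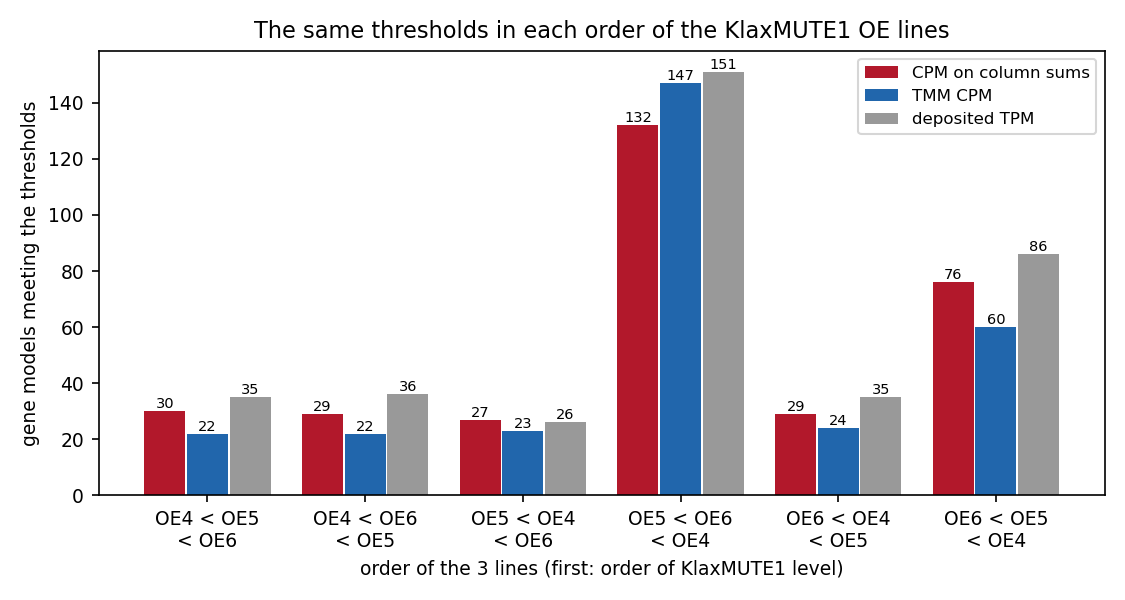
Number of gene models that met the same limits when the 3 KlaxMUTE1 OE lines were put in each of 6 orders, on CPM (red), TMM-scaled CPM (blue) and deposited TPM (grey). The order of KlaxMUTE1, at the left, held 30 gene models on CPM, near the 27 to 29 of 3 other orders and below the 132 and 76 of the orders with OE4 highest.

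Markers of leaf cell types, held in the annotated part, were summed in each library. The 4 photosynthesis markers summed to 7264, 6677 and 10883 CPM in OE4, OE5 and OE6, against 12842 to 14061 CPM in wild type, so all 3 lines lay below wild type in the sum. Most of that sum was 1 gene model similar to RBCS1, the small subunit of Rubisco, with 5228, 5448 and 9228 CPM in the lines, against 9996 to 11313 CPM in wild type. The others did not share its order. The gene model similar to LHCB4.2, a light-harvesting protein, had 1665, 911 and 1195 CPM, against 1892 to 3422 CPM, and the LHCII gene model had 14.6, 9.52 and 10.8 CPM, against 26.7 to 35.6 CPM, so that OE4 was the nearest line to wild type in both. The gene model similar to PSAL, a subunit of photosystem I, had 356, 308 and 449 CPM, against 394 to 615 CPM, with OE6 inside the wild-type range.

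The 5 markers of dividing cells, B-type cyclins and proteins of the spindle and the cell plate, summed to 51.5, 49.1 and 35.6 CPM in the lines, against 29.4 to 42.2 CPM in wild type, and 3 of them were at 0 in at least 1 library. Most of that sum was 1 gene model similar to CYCB1-2, with 47.7, 38.3 and 28.8 CPM in the lines, against 28.8 to 41.2 CPM in wild type. KlGene000552, similar to the B-type cyclin CYCB2-4, had 3.72, 6.76 and 6.24 CPM in the lines, against 0.343 to 0.857 CPM in wild type. It was called higher, with a log2 fold change of 2.91 (adjusted p = 0.0033 by edgeR). The 2 gene models similar to HT1, a kinase known from guard cells, summed to 215, 326 and 199.6 CPM in the lines, against 155 to 178 CPM in wild type. The 4 cuticle and epidermis markers summed to 174, 253 and 192 CPM in the lines, against 155 to 282 CPM in wild type, and the 3 vascular markers to 16.8, 27.6 and 21.4 CPM, against 15.5 to 18.0 CPM. The vascular sum mixed gene models that went opposite ways. The gene model similar to CESA7 had 3.53, 10.9 and 6.37 CPM in the lines, against 0.811 to 1.59 CPM in wild type. That similar to TDR had 3.19, 7.79 and 5.64 CPM in the lines, against 7.88 to 11.2 CPM in wild type. None of the 5 sums rose in the order OE4, OE5, OE6, and their part in the members' levels was not tested.

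Genes of other roles in the leaf were counted in 10 lists drawn from the annotated part. The only annotated member was noted as of unknown function, so no list could hold a member. Of 191 listed gene models tested, 51 were called higher and 16 lower in KlaxMUTE1 OE by edgeR's quasi-likelihood test, with a median log2 fold change of 0.30. Over all gene models the same calls covered 12.6% and 7.60%. Of the 987 tested gene models in the annotated part, 141 were called higher and 74 lower. Among 19 gene models of cell division and DNA replication, 6 were called higher and 0 lower (median log2 fold change 0.81), and among 19 of the cell wall 7 and 1 (0.94). Auxin and cytokinin genes had 3 and 1 of 9 (0.85), and cuticle and other lipid genes 5 and 0 of 14 (0.46). Receptor-like kinases, listed together with receptor-like proteins, had 9 and 1 of 25 (0.22). Some gene models stood on more than 1 list and were counted in each. Defence genes had 6 and 1 of 29 (0.42), transport genes 7 and 4 of 26 (-0.07), transcription factors 9 and 5 of 47 (0.11), and photosynthesis genes 1 and 3 of 14 (-0.47).

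Of the 4 stomatal regulators in the annotated part, 1 was called higher. KlGene000830, noted as similar to the D-type cyclin CYCD3-2, which promotes entry into the cell cycle, had 60.9, 15.0 and 21.1 CPM in OE4, OE5 and OE6, against 1.07, 0.243, 0.215 and 0.234 CPM in WT6, WT7, WT8 and WT9. Its log2 fold change was 6.08 (adjusted p = 0.00311 by edgeR), and it was highest in OE4, not in OE6. KlGene000465, noted as similar to SCRM (ICE1), the partner of MUTE, had 14.6, 21.9 and 28.8 CPM in the lines, against 12.4, 13.8, 9.52 and 13.0 CPM in wild type. It rose in the order of KlaxMUTE1 but OE4 lay close to the highest wild-type plant, and its log2 fold change of 0.65 (adjusted p = 0.0805 by edgeR) was under the limit of 1.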

How the data were processed

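Seventh-leaf-pair RNA of 3 KlaxMUTE1 OE lines and 4 wild-type individuals, grouped by the library names in the labels, was sequenced after poly(A) selection. The authors mapped reads to their genome of accession OBG with HISAT2, and deposited raw htseq-count counts for each gene model, with no normalization, and TPM values scaled by the length of the gene model. For neither tool is a version or strand setting given in the sources used here, so paralogs and overlapping gene models may share reads. No per-sample column was left without a sample (0).

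CPM was the count over the column sum. All genes with at least 10 counts over the 7 libraries were fitted in R 4.3.3 with edgeR 4.0.16 (TMM, glmQLFit, glmQLFTest, Benjamini-Hochberg adjustment, adjusted p under 0.1 and absolute log2 fold change over 1), with DESeq2 1.42.0, the tool of the study, as an alternative. Step intervals were exact conditional binomial (95%). The fit and the rule were tested on simulated data. Notes came from the held part of the gene annotation.

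The members, lists and tests were chosen with earlier results of these data known. The annotated member, the member with the highest wild-type level and the one with the largest OE6 over wild type were named by a set rule; others were chosen by their values. P-values measure the spread between these plants. Alternatives covered scaling, filters, limits, libraries left out and a replicate block.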

Additional observations from a re-analysis of the deposited data

Results flagged for a closer look

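One result of 35 (the wild-type levels of the 30 members and of the 5 marker sums) had a wild-type plant far from the other 3 by Dixon's limit for 4 samples. The summed vascular markers were at 18.0 CPM in wild-type replicate 2 (WT7), against 15.5 to 15.9 CPM in the other wild-type plants. Chance alone places about 1 in 20 groups past this limit. No member had such a plant.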

How the results depend on the processing

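The number of members followed the limits. It was 16 with a wild-type mean of at least 5 CPM, 15 with OE4 at least 2 times the highest wild-type library, 11 with steps of at least 1.5, 63 with steps of at least 1.1 and 147 with any rise between the lines, the last added after seeing the data. On other scales it stayed within 1.5 times of 30, but the gene models changed. TMM-scaled CPM gave 22, of which 16 were members, DESeq2 size factors gave 23 with 17 members, and deposited TPM gave 35 with 29 members. On the TMM scale 12 members missed the limit on OE5 over OE4 and 6 the limit on OE4 over wild type, 4 of them both. Leaving out 1 wild-type library gave 30 to 38. All 30 members were called higher by edgeR with each other scaling and filter, by DESeq2, and without any 1 library other than OE6, which left 26. Same-numbered plants share only a number (correlations of their deviations 0.129, 0.0805 and 0.0817). With the number as a replicate block 25 members and 1534 gene models were called higher, against 30 and 2761 without it. Replicate 4 exists only in wild type, so the block also took WT9 out of the contrast and left fewer degrees of freedom. KlGene005711, KlGene010253 and KlGene014563 were among the calls lost with the block, with adjusted p = 0.104, 0.102 and 0.109 by edgeR. Library size alone, without TMM, gave 3539 higher and 1195 lower gene models, against 2761 and 1665. With 1 library a line, only the counting part of the error of a step could be estimated, not the difference between plants or lines. Members under 5 CPM in wild type had as few as 64 counts in OE4, and KlGene005711 had 8 in WT9.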

Other observations

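With the limit on the steps lowered, 4 further annotated gene models followed the order of KlaxMUTE1 on CPM. At steps of at least 1.1, KlGene001267, noted as similar to the inward potassium channel AKT1, had 59.0, 89.4 and 107 CPM in OE4, OE5 and OE6, against 7.29, 8.11, 7.21 and 7.34 CPM in WT6, WT7, WT8 and WT9. Its steps were 1.51-fold (95% counting interval 1.41 to 1.62) and 1.198-fold (1.13 to 1.27), both above the narrow range among the wild-type plants. On TMM-scaled CPM, where first steps were multiplied by 0.884 and second steps by 1.098, it met the full rule with no limit lowered. KlGene000582, noted as similar to the DNA excision repair protein ERCC1, had 5.66, 6.54 and 7.70 CPM in the lines, against 1.89 to 2.85 CPM in wild type, and the counting intervals of both steps reached 1.

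With any rise between the lines, a limit chosen after seeing the data, KlGene000015, noted as similar to the auxin efflux carrier PIN7, had 115, 117 and 155 CPM in OE4, OE5 and OE6, against 28.1 to 38.1 CPM in wild type. OE4 and OE5 were level within counting error, with a step of 1.02-fold (0.967 to 1.08), and OE6 stood 1.32-fold above OE5 (1.26 to 1.39). KlGene000460, noted as similar to a rat sialyltransferase, had 13.2, 13.5 and 18.1 CPM in the lines, against 5.52 to 8.30 CPM in wild type. The counting interval of its first step also reached 1 (0.874 to 1.20). On TMM-scaled CPM, OE5 lay below OE4 for KlGene000015 and KlGene000460, so neither followed the order there.

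The mirrored rule, with OE4 below the lowest wild-type plant and each next line lower by the same factors, was met by 30 gene models, the same number as the rising rule. Their annotation was not analysed here.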
